A study of Mus musculus with 10 samples.

Results

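The genes examined were 10 regulators and adhesion genes of the epithelial-mesenchymal axis: the transcription factors Snai1, Snai2, Twist1, Twist2, Zeb1, Zeb2 and Prrx1, the cadherins Cdh1 and Cdh2, and the epithelial adhesion gene Epcam. They were taken by name from a deposited count table of 56750 mouse genes, and all 10 were among the 24743 genes with enough counts to be tested. Bulk RNA-seq compared sarcomas of 2 mouse models. Of these, 3 tumors (170019, 170024 and 170025) came from dFLEx mice, labelled dFLEx CDS +/-, which carry a CIC::DUX4 fusion transgene knocked in at Rosa26. Its CAG promoter drives the fusion only after both Cre and FLP have acted, and per the study's methods these recombinases came from plasmids electroporated into the hind limb muscle, so the cell in which a tumor starts was not fixed by a cell-type promoter. The 2 KP tumors, 3800 and 3802, grew in mice labelled KRASloxP-STOP-loxP-G12D; p53fl/fl, and how these tumors were started is not given in the sources used here. The labels of the 2 groups share no allele or agent, and the groups differ in oncogene, p53 state and possibly in induction, so these cannot be told apart.

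RNA of each tumor was split into duplicates, and 9 of the 10 labelled libraries had a column in the table, with the second library of 3802 not analysed here. Library totals ran from 20503474 to 46302223 counts, and the duplicates of a tumor were summed, so that n is the number of tumors. Levels are given as CPM, a gene's share of all counts of a tumor, after TMM scaling, which sets the libraries to a common level for the bulk of genes. All tumors held transcripts of muscle, blood vessel, fibroblast and macrophage markers. The summed level of 8 myocyte markers was 1567 to 32506 CPM, of 8 endothelial markers 171 to 594 CPM, of 6 fibroblast markers 202 to 800 CPM, of 8 macrophage markers 591 to 4147 CPM and of 6 Schwann cell markers 13.9 to 68.9 CPM, where Cdh19 had no count in 3800. Fewer cells of a type and less RNA per cell cannot be told apart in such bulk samples. Tumors also differed with gene length. The Spearman correlation, across 15219 genes, of exonic length with a gene's deviation from its mean over tumors was -0.48 in 170019, -0.28 in 170024, 0.40 in 170025, 0.35 in 3800 and -0.17 in 3802.

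Snail (Snai1), Slug (Snai2), Twist1, Twist2, Zeb1, Zeb2 and Prrx1 are DNA-binding proteins that lower epithelial adhesion genes or raise mesenchymal ones in development and in carcinoma. Snail, Slug and the Zeb proteins are zinc finger repressors that bind E-boxes of the form CACCTG, also in the promoter of Cdh1, which encodes E-cadherin. Twist1 and Twist2 are basic helix-loop-helix factors, and Prrx1 is a homeodomain factor of limb and craniofacial mesenchyme. Sarcomas are mesenchymal tumors, so these factors are often on at some level, and the comparison here asks at what level each sarcoma model held them, and with which cadherins.

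Promoter windows from RefSeq (build GRCm38.p6), each with 250 bases before and 50 after a gene's start, were given for 6 of the 10 genes: Snai1, Twist1, Twist2, Zeb2, Prrx1 and Epcam. The E-box CANNTG, which reads alike on both strands, occurred in 72.3% of 32851 such windows, and its form CACCTG, read as CAGGTG on the other strand, in 20.2%. Of the 6 genes, Snai1 and Epcam held CACCTG or CAGGTG, and the windows of Twist1, Twist2, Prrx1 and the 4 windows of Zeb2 held no CANNTG at all. The octamers TGAATGAA and TGAATGGA, the sites of the CIC DNA-binding domain, were searched on both strands and lay in none of the 9 windows of these genes and in 2.47% of all windows. The 250 bases before the start are shown for Snai1 (GRCm38.p6, chr2:167537945-167538194, plus strand) and Epcam (GRCm38.p6, chr17:87635729-87635978, plus strand), since these were the windows with the Snail-type E-box, which stands in capitals; its first base lay 126 bases before the start of Snai1, and 187 and 19 bases before that of Epcam.
Snai1: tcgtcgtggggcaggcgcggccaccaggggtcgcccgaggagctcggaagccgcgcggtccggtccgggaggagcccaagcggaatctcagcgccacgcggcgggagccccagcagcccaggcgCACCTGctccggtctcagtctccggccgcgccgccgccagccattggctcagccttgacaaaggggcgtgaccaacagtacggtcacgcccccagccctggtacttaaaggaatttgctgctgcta
Epcam: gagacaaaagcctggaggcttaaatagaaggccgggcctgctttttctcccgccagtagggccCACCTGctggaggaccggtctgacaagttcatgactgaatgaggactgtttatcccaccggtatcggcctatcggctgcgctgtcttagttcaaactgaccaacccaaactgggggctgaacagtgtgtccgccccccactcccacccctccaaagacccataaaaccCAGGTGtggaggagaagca

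All 3 dFLEx tumors held more Snai1 and Twist1 than either KP tumor, and Zeb2, Prrx1, Cdh1, Cdh2 and Epcam were lower in every dFLEx tumor. Snai2, Twist2 and Zeb1 overlapped between the groups. No gene of the 10 passed the test across all genes (edgeR's quasi-likelihood test, Benjamini-Hochberg adjusted p under 0.05), which 0.182% of all tested genes did, 0.101% higher in dFLEx and 0.0808% lower. At an unadjusted p under 0.05 there were 7 of the 10, against 10.6% of all tested genes. A complete separation with dFLEx above was seen for 2 of the 10, against 13.7% of all genes, and with dFLEx below for 5 of the 10, against 11.7%. The median log2 fold change of the 10 genes was -1.42, and that of all tested genes was -0.18. DESeq2 on the same tumor sums put 4 of the 10 past the threshold (Snai1, Twist1, Prrx1 and Cdh1), against 6.25% of 22335 genes, and limma with the tumor as a random effect put 5 past it, these 4 and Cdh2, against 2.78% of 19538.

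**Figure D1:**
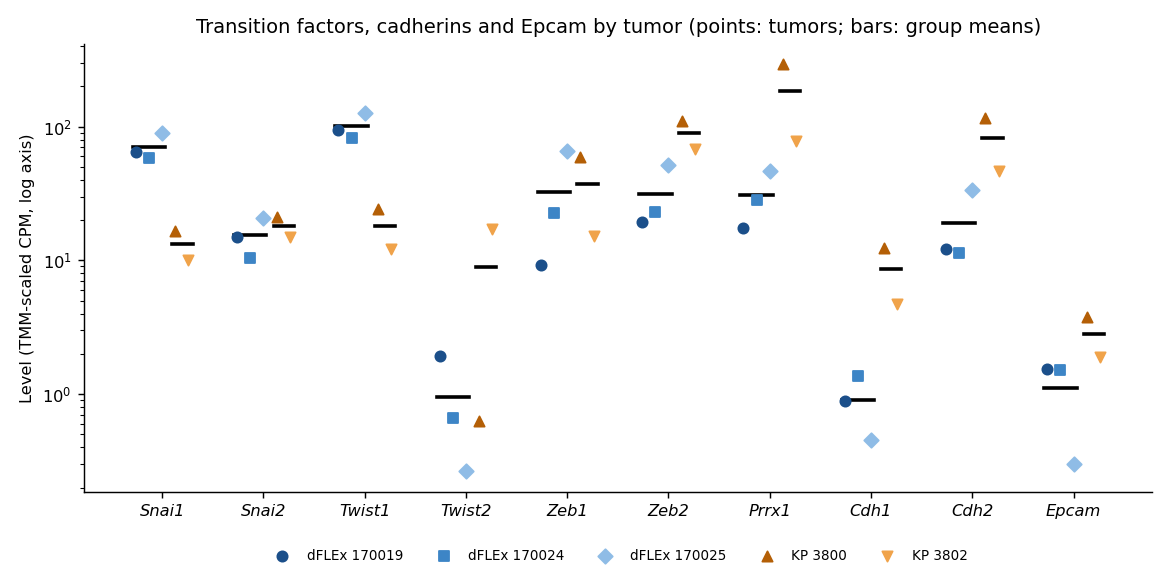
Level of each gene in each tumor, in TMM-scaled CPM on a log axis; each point is 1 tumor and each bar the mean of 3 dFLEx or 2 KP tumors. Snai1 (58.0 to 89.6 CPM) and Twist1 (82.2 to 126 CPM) in dFLEx lie above both KP tumors, and Cdh1 in dFLEx (0.453 to 1.37 CPM) lies below both.

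Snai1 (ENSMUSG00000042821, GRCm39 chr2:167380115-167384734) had levels of 64.9, 58.0 and 89.6 CPM in 170019, 170024 and 170025, and of 16.5 and 10.1 CPM in 3800 and 3802. The groups did not overlap, and the lowest dFLEx tumor stood 3.51-fold above the highest KP tumor. The means were 70.8 ± 16.6 CPM (SD, n = 3) and 13.3 ± 4.54 CPM (SD, n = 2), a fitted 5.31-fold difference (log2 fold change 2.41, SE 0.63, edgeR adjusted p = 0.195). The 2 libraries of 1 tumor differed by at most 0.38 on the log2 scale. With GC content and length trends removed, the groups stayed apart by 1.43-fold, at 40.3, 41.8 and 112 CPM against 28.2 and 10.9 CPM, and the log2 fold change was 1.73.

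Twist1 (ENSMUSG00000035799, GRCm39 chr12:34007670-34009828) reached 93.7, 82.2 and 126 CPM in the dFLEx tumors, in the same order, and 24.1 and 12.1 CPM in the KP tumors. All dFLEx tumors were again above both KP tumors, the nearest by 3.41-fold. Group means were 101 ± 22.7 CPM (SD, n = 3) and 18.1 ± 8.54 CPM (SD, n = 2), with a log2 fold change of 2.47 (SE 0.64, edgeR adjusted p = 0.196). With the trends removed the gap was 1.46-fold and the log2 fold change 1.78. Snai1 and Twist1 kept nearly the same proportion in all 5 tumors: per kilobase of exon, Snai1 was 0.70, 0.71 and 0.71 times the level of Twist1 in the dFLEx tumors and 0.69 and 0.84 times in the KP tumors, while Snai1 itself spanned 8.85-fold and Twist1 10.4-fold over the tumors. Among 15263 genes whose mean level was 1 CPM or more, none lay closer to Twist1 than Snai1 did (root mean square difference of the centred log2(CPM + 1) values 0.11 over 5 tumors), a comparison chosen after these values were seen. The exons of the pair are alike in length, 1621 and 1628 bases, and in GC content, 59.7% and 59.4%. The sums of vessel markers separated the groups too: the 5 pericyte markers summed to 924, 588 and 1016 CPM in dFLEx and to 353 and 86.9 CPM in KP, and the 8 endothelial markers to 541, 489 and 594 CPM and to 171 and 268 CPM, with none at 0 counts. Singly, 3 of the 5 and 6 of the 8 overlapped between the groups. In dFLEx most of the pericyte sum was the single gene Rgs5, at 826, 473 and 776 CPM there and 249 and 16.5 CPM in KP. Of the 5 pericyte markers, 4 had a positive log2 fold change and 1 a negative one. The part of vessel cells in the levels of Snai1 and Twist1 was not tested.

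Slug, the paralog of Snail, overlapped between the groups. Snai2 (ENSMUSG00000022676, GRCm39 chr16:14523716-14527249) was at 14.9, 10.4 and 20.9 CPM in the dFLEx tumors 170019, 170024 and 170025 and at 21.0 and 14.9 CPM in the KP tumors 3800 and 3802. The KP tumors lay near the middle and the top of the dFLEx range, and the log2 fold change of -0.22 (SE 0.60, edgeR adjusted p = 0.957) was smaller than its error and became 0.22 without 3800. Read per kilobase, Slug made up 15.5%, 12.6% and 15.8% of the summed Snail and Slug transcripts in the dFLEx tumors, and 50.5% and 54.1% in the KP tumors. The shares did not overlap. The exact two-sided permutation test over the tumors gave p = 0.2 (0.4 after adjustment over 4 such ratios). Its p doubles the smaller tail over 10 splits, so 0.2 was the smallest it could give for 3 against 2 tumors. GC content differs within the pair, at 59.7% for Snai1 and 43.3% for Snai2. With GC content and length trends removed, Snai2 was at 12.9, 10.5 and 22.1 CPM in dFLEx and 19.2 and 17.8 CPM in KP. Snai1 was then at 40.3, 41.8 and 112 CPM and at 28.2 and 10.9 CPM. The shares were not recomputed from these values.

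Twist2 (ENSMUSG00000007805, GRCm39 chr1:91729183-91775750) was scarce in 4 of the 5 tumors, at 1.94, 0.659 and 0.265 CPM in the dFLEx tumors and 0.631 CPM in 3800, and stood at 17.2 CPM in 3802. The KP value therefore rested on 1 tumor: the log2 fold change was -3.23 (SE 1.31, edgeR adjusted p = 0.433) with all tumors and 0.60 without 3802. Of its exonic bases, 46.5% overlap the antisense gene Gm29100, which had 10 counts in all tumors together. Twist1 made up 98.9%, 99.6% and 99.9% of the per-kilobase Twist transcripts in the dFLEx tumors, 98.7% in 3800 and 57.7% in 3802 (exact permutation p = 0.2, adjusted 0.4). In 3802 the T cell (48.6 CPM), B cell (34.7 CPM) and macrophage (4147 CPM) marker sums were the highest of the 5 tumors, and their part in the Twist2 level was not tested.

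**Figure D2:**
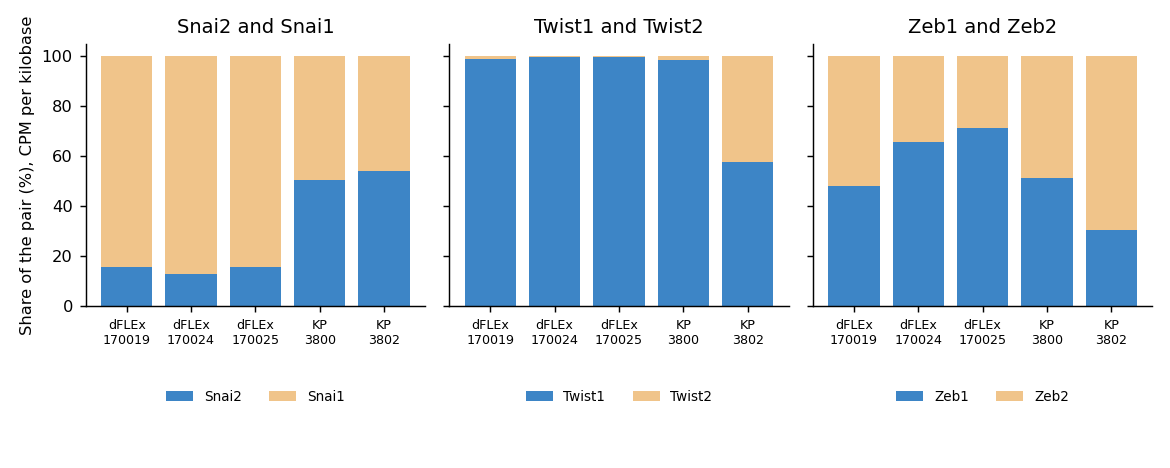
Share of each paralog in its pair, in percent of the summed CPM per kilobase, for each of the 5 tumors (1 stacked bar a tumor). Slug holds 12.6% to 15.8% of its pair in dFLEx and 50.5% to 54.1% in KP, whereas the shares of Zeb1 overlap between the groups. Trends with GC content and length were not removed.

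With TMM scaling, Zeb1 varied more than Zeb2 among tumors of the same model. Zeb1 (ENSMUSG00000024238, GRCm39 chr18:5591860-5775467) ran from 9.15 over 22.5 to 65.3 CPM in the dFLEx tumors 170019, 170024 and 170025, and the KP tumors 3800 and 3802 had 59.0 and 15.1 CPM. Its 7.13-fold range within dFLEx covered both KP tumors, and the log2 fold change was -0.20 (SE 0.93, edgeR adjusted p = 0.978), 1.27 without 3800 and 0.22 without 170019. The order of the tumors for this gene of 10266 exonic bases was close to the order of their length trends given above. With the trends of GC content and length removed, Zeb1 stood at 15.6, 26.2 and 38.3 CPM in dFLEx and at 33.0 and 22.3 CPM in KP, and the groups still overlapped.

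Zeb2 (ENSMUSG00000026872, GRCm39 chr2:44873644-45007407) was at 19.5, 23.0 and 51.9 CPM in 170019, 170024 and 170025, below the 110 CPM of 3800 and the 67.7 CPM of 3802. The nearest tumors were 1.30-fold apart, and the log2 fold change was -1.50 (SE 0.64, edgeR adjusted p = 0.467), -0.93 without 3800. With GC content and length trends removed, Zeb2 stood at 36.2, 30.1 and 28.7 CPM in dFLEx and at 54.1 and 92.5 CPM in KP. Zeb2 is also expressed in macrophages, whose 8 markers summed to 770, 724 and 591 CPM in dFLEx and to 1293 and 4147 CPM in KP, with 6 of the 8 lower in every dFLEx tumor and none at 0 counts. The part of these cells in the Zeb2 difference was not tested. Within a tumor, Zeb1 per kilobase was 0.92, 1.93 and 2.47 times Zeb2 in dFLEx and 1.06 and 0.44 times in KP, which overlapped (exact permutation p = 0.4, adjusted 0.533).

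Prrx1 (ENSMUSG00000026586, GRCm39 chr1:163072688-163141279) was highest in 3800, at 292 CPM. The other KP tumor had 78.2 CPM, and the dFLEx tumors had 17.6, 28.3 and 46.4 CPM. Every dFLEx tumor was lower, by at least 1.69-fold, and the log2 fold change was -2.59 (SE 0.74, edgeR adjusted p = 0.230). Without 3800 the value moved to -1.18, and with GC content and length trends removed the tumors stood at 30.8, 34.6 and 26.9 CPM in dFLEx against 152 and 115 CPM in KP, so the tumors of each model then lay closer together. The 6 fibroblast markers, a cell type with Prrx1 expression, summed to 800, 770 and 666 CPM in dFLEx and to 202 and 746 CPM in KP, lowest in 3800. In 3802 most of this sum was 1 gene, Dcn, at 566 CPM, against 438, 381 and 228 CPM in dFLEx and 99.1 CPM in 3800. All 6 markers had a positive log2 fold change, and 3 were higher in every dFLEx tumor, against 13.7% of all tested genes. The part of fibroblasts in the Prrx1 level was not tested.

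**Figure D3:**
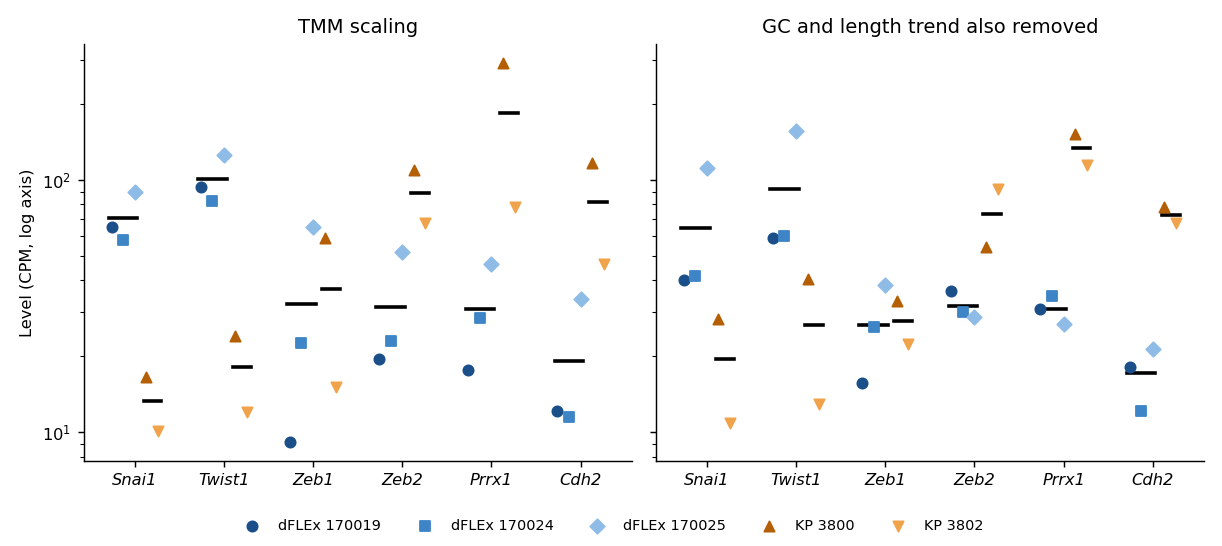
Level of 6 transition factors and cadherins in each tumor (CPM, log axis; bars are group means) with TMM scaling alone and with each tumor's trend of expression with GC content and exonic length also removed. In Prrx1 and Cdh2 the 5 tumors stay apart by group, with dFLEx at 26.9 to 34.6 CPM and 12.1 to 21.3 CPM after removal, and in Snai1 the distance between 3800 and the dFLEx tumors is smaller.

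E-cadherin, the adhesion molecule of epithelia, was scarce throughout and scarcest in dFLEx. Cdh1 (ENSMUSG00000000303, GRCm39 chr8:107329983-107396878) gave 0.896, 1.37 and 0.453 CPM in the dFLEx tumors, from 36, 79 and 36 counts, and 12.4 and 4.75 CPM in the KP tumors, from 922 and 117 counts. All dFLEx tumors were below both KP tumors, the nearest by 3.47-fold. The log2 fold change was -3.24 (SE 0.79, edgeR adjusted p = 0.168), the smallest adjusted p of the 10 genes, and it ran from -3.76 to -2.23 when 1 tumor was left out. The 8 keratinocyte markers summed to 53.9, 22.4 and 15.3 CPM in dFLEx and 10.6 and 46.4 CPM in KP, with Krt1, Krt15 and Dsg3 at 0 counts in 170025 or 3800; their part in the Cdh1 level was not tested. By the pattern over the 5 tumors, the genes most like Cdh1 among 13911 with a gene name other than a provisional one were Lix1, Ank3 and Evi2a, with root mean square log2 differences of 0.0832, 0.137 and 0.167. These differences use log2(CPM + 1), and the added 1 narrows the range of a gene as low as Cdh1 in dFLEx. The fitted fold of KP over dFLEx was 9.46 for Cdh1, and 11.4, 5.28 and 4.59 for Lix1, Ank3 and Evi2a.

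N-cadherin, found in mesenchyme, nerve and muscle precursors, stood lower in every dFLEx tumor as well, the same side as E-cadherin. Cdh2 (ENSMUSG00000024304, GRCm39 chr18:16721934-16942303) gave 12.1, 11.4 and 33.8 CPM in the dFLEx tumors and 117 and 46.4 CPM in the KP tumors. The groups did not overlap, with 1.37-fold between the nearest tumors, and the log2 fold change was -2.09 (SE 0.73, edgeR adjusted p = 0.342), -1.10 without 3800. The ratio of Cdh2 to Cdh1 per kilobase was 7.67, 4.73 and 42.2 in dFLEx and 5.34 and 5.53 in KP. N-cadherin exceeded E-cadherin in all 5 tumors, and the ratio overlapped between the groups (exact permutation p = 0.6). Genes nearest to Cdh2 in pattern were Pde3b, Arg1 and Camk1d, at 0.170, 0.193 and 0.194.

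Epcam (ENSMUSG00000045394, GRCm39 chr17:87943407-87958557), a surface protein of simple epithelia, was low in all 5 tumors, at 1.54, 1.51 and 0.302 CPM in dFLEx and 3.75 and 1.91 CPM in KP. The groups were separate by 1.24-fold only, and the log2 fold change of -1.35 had an SE of 0.92 (edgeR adjusted p = 0.773). It was -0.62 without 3800 and -0.90 without 170025. Read per kilobase, Epcam, Cdh1 and Twist2 had the lowest group means of the 10 genes in both groups. In 3802, however, Twist2 at 5.43 CPM per kilobase stood above Zeb1 (1.47) and Zeb2 (3.35).

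**Figure D4:**
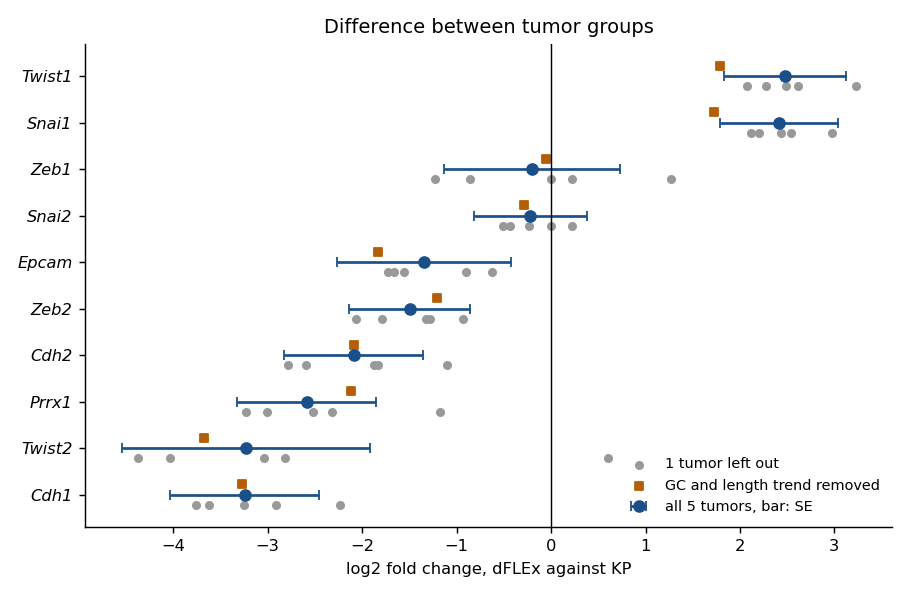
Log2 fold change of dFLEx against KP for each gene: circles with bars give the value and SE over 5 tumors, grey points the values with 1 tumor left out, and squares the value after removal of GC and length trends. Snai1 and Twist1 stay above 0 and Zeb2, Prrx1, Cdh1, Cdh2 and Epcam below 0 throughout, while Snai2, Twist2 and Zeb1 cross 0 when 1 tumor is left out.

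Levels between genes were compared per kilobase of exon, over all annotated exonic bases of a gene (11066 for Prrx1 and 20203 for Zeb2). GC and length trends were not removed for this order. Their removal moved Snai1 from 64.9 to 40.3 CPM and Prrx1 from 17.6 to 30.8 CPM in 170019. In 170025 it moved Snai1 from 89.6 to 112 CPM and Prrx1 from 46.4 to 26.9 CPM. In dFLEx, Twist1 (mean 61.8 CPM per kilobase) and Snai1 (43.7) led, followed by Snai2 (7.62), Zeb1 (3.15), Prrx1 (2.78), Cdh2 (2.37), Zeb2 (1.56), Epcam (0.509), Twist2 (0.301) and Cdh1 (0.198). Neighbours in this order kept it in all 3 tumors, apart from Zeb1 and Prrx1 and from Twist2 and Cdh1, which kept it in 1 of 3. In KP the order was Prrx1 (16.7), Twist1 (11.1), Cdh2 (10.1), Snai2 (8.88), Snai1 (8.22), Zeb2 (4.40), Zeb1 (3.61), Twist2 (2.81), Cdh1 (1.87) and Epcam (1.29). There the 2 tumors disagreed for Prrx1 and Twist1, Cdh2 and Snai2, Zeb2 and Zeb1, Zeb1 and Twist2, and Twist2 and Cdh1. The leading pair of dFLEx thus stood apart from the third gene, whereas the 5 leading group means of KP lay between 8.22 and 16.7 CPM per kilobase; all 5 genes were higher in 3800 than in 3802, Prrx1 with 26.4 against 7.07.

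P-cadherin and M-cadherin, the type I cadherins of basal epithelia and of muscle precursors, made up most of the type I cadherin transcripts, rather than Cdh1 or Cdh2. Cdh3, which encodes P-cadherin and ends 46.053 kilobases upstream of Cdh1 on the same strand, was at 101, 162 and 265 CPM in dFLEx and at 1.40 and 4.27 CPM in KP (log2 fold change 5.97, SE 0.93, edgeR adjusted p = 0.0744). Cdh15, which encodes M-cadherin, went the other way, with 2.44, 12.6 and 4.53 CPM in dFLEx and 136 and 88.5 CPM in KP (log2 fold change -4.10, SE 0.81, edgeR adjusted p = 0.109). Neither passed the edgeR threshold and neither overlapped between the groups, while DESeq2 (adjusted p = 3.24e-11 and 2.27e-05) and limma (adjusted p = 0.00162 and 0.00180) called both.

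Of the summed per-kilobase transcripts of the type I cadherins Cdh1, Cdh2, Cdh3, Cdh4 and Cdh15, P-cadherin made up 87.1%, 85.2% and 87.3% in dFLEx and 0.538% and 2.73% in KP. M-cadherin made up 2.83%, 8.93% and 2.02% in dFLEx and 70.5% and 76.5% in KP. N-cadherin held 5.68%, 3.26% and 6.06% in dFLEx and 24.4% and 16.2% in KP, and E-cadherin at most 0.740% in dFLEx and at most 4.57% in KP. The sum itself overlapped, at 26.5, 43.4 and 69.1 CPM per kilobase in dFLEx and 59.3 and 35.6 in KP. The 5 satellite cell markers, Cdh15 among them, summed to 19.4, 77.4 and 33.2 CPM in dFLEx and to 627 and 376 CPM in KP, with none at 0 counts. Of the 5, 4 were lower in every dFLEx tumor, against 11.7% of all tested genes, and Pax7 overlapped. Pax7 was at 0.771, 1.65 and 4.12 CPM in dFLEx and 7.52 and 2.93 CPM in KP. Chrna1 alone gave 14.3, 46.2 and 18.3 CPM in dFLEx and 364 and 208 CPM in KP. Myod1, which commits cells to muscle, was at 1.74, 16.2 and 5.87 CPM against 69.7 and 54.3 CPM. The sum of the myocyte markers, given above, went the other way and was higher in every dFLEx tumor. The part of muscle precursors in the levels of Cdh15, Cdh2 and Prrx1 was not tested.

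**Figure D5:**
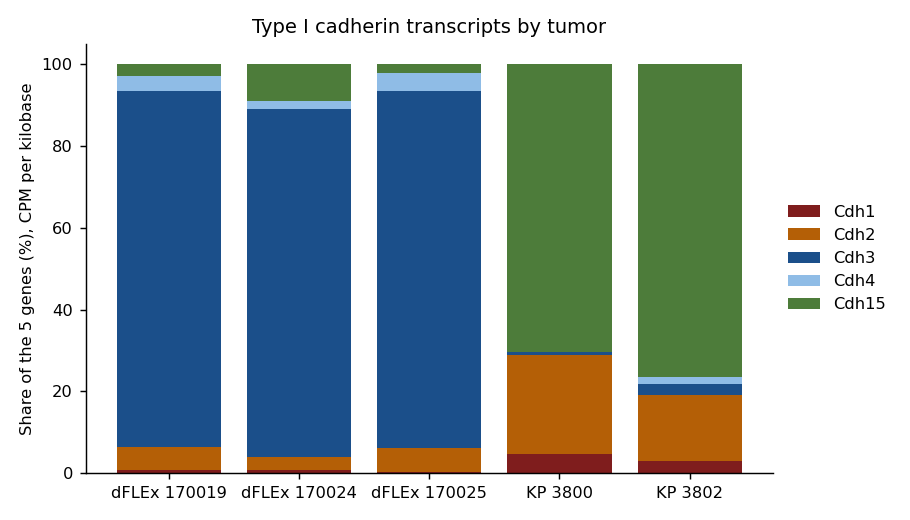
Share of each type I cadherin gene in the summed CPM per kilobase of the 5 genes, in percent, for each tumor. P-cadherin (Cdh3) fills 85.2% to 87.3% of the bars of the 3 dFLEx tumors and M-cadherin (Cdh15) 70.5% and 76.5% of those of the KP tumors.

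Of the 20 cadherin genes listed beside Cdh1 and Cdh2, with Cdh3 and Cdh15 among them, 17 could be tested, and none passed the edgeR threshold, although 1 was higher and 3 were lower in dFLEx at an unadjusted edgeR p under 0.05. DESeq2 called 1 higher and 3 lower, and limma 1 higher and 1 lower. Every dFLEx tumor was above both KP tumors for 3 of the 17 (13.7% of all tested genes) and below for 6 (11.7% of all tested genes). The mesenchymal cadherin Cdh11 belonged to the former, at 117, 93.6 and 276 CPM against 83.5 and 21.7 CPM (log2 fold change 1.62, SE 0.82, edgeR adjusted p = 0.585), and is named here for its level. Cdh18 was at 0.0867 CPM and 0.126 CPM in 170024 and 170025, at 6.96 and 1.87 CPM in KP, and had no count in 170019, which allows up to 0.0746 CPM (3 counts).

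Of 5 paralogs of these genes only Tcf15, a basic helix-loop-helix factor of somites related to the Twist family, passed the test and rose in dFLEx, at 156, 209 and 107 CPM against 0.376 and 1.02 CPM (log2 fold change 7.85, SE 0.93, edgeR adjusted p = 0.0463). That call was lost under upper-quartile scaling (adjusted p = 0.0627) and in 4 of the 5 fits that left out 1 tumor. Snai3 was listed at under 1 CPM in all tumors, and the ranges of Prrx2 (22.4 to 70.3 CPM in dFLEx, 21.3 and 30.8 CPM in KP) and of the tendon factor Scx overlapped.

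None of 13 partners and corepressors passed the edgeR test, and 3 were higher in dFLEx at an unadjusted p under 0.05; DESeq2 called 3 higher and limma 2. The Id proteins bind the E proteins that Twist and other basic helix-loop-helix factors pair with and keep them from DNA. Id1 stood at 624, 368 and 171 CPM in dFLEx and at 21.3 and 34.1 CPM in KP (log2 fold change 3.81, SE 0.79, edgeR adjusted p = 0.120). Id3 reached 2259, 802 and 512 CPM against 75.3 and 149 CPM (3.41, SE 0.86, adjusted p = 0.187 by edgeR), and Id4 14.3, 14.5 and 15.5 CPM against 2.15 and 3.09 CPM (2.50, SE 0.63, adjusted p = 0.186 by edgeR). For 7 of the 13 genes every dFLEx tumor was above both KP tumors, and for none below, against 13.7% and 11.7% of all tested genes. Between the nearest tumors the gap was 5.01-fold for Id1, 4.64-fold for Id4, 3.43-fold for Id3 and 1.52-fold for Ctbp2. It was only 1.04-fold for Id2, 1.02-fold for Tcf4 and 1.01-fold for Ctbp1. The E protein genes Tcf3 (122 to 245 CPM in dFLEx) and Tcf12 (20.2 to 116 CPM) overlapped between the groups, and Tcf4 was at 474, 422 and 384 CPM against 197 and 377 CPM (edgeR adjusted p = 0.867).

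The epithelial list held 20 genes, of which 17 could be tested. Elf3, an ETS factor of differentiated epithelia, was the 1 gene that passed the edgeR test and rose in dFLEx: it was at 218, 207 and 161 CPM against 0.215 and 0.122 CPM (log2 fold change 10.10, SE 0.87, edgeR adjusted p = 0.0245), a call lost without 170019 (adjusted p = 0.113) and without 170024 (0.118). Every dFLEx tumor was above both KP tumors for 5 of the 17 (13.7% of all tested genes) and below for 5 (11.7% of all tested genes). St14, a membrane protease of epithelia, was at 34.9, 42.7 and 39.9 CPM against 0.927 and 5.93 CPM (adjusted p = 0.201 by edgeR), and Pkp3, a desmosome plaque gene, at 0.647, 1.08 and 0.705 CPM against 6.99 and 6.14 CPM (edgeR adjusted p = 0.137). At an unadjusted edgeR p under 0.05, 4 were higher and 1 lower, DESeq2 called 3 higher and 1 lower, and limma 2 higher. The median log2 fold change of the 17 was -1.41. Elf3, St14 and Cdh3 stood high in the same tumors in which Cdh1 and Epcam were lowest. St14 and Pkp3 are named here after their values were seen.

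Of 18 mesenchymal effector genes none passed, and 3 were higher and 1 lower at an unadjusted edgeR p under 0.05. DESeq2 and limma called 0 of them. The collagen gene Col1a1 ran from 893 over 2252 to 5105 CPM in dFLEx against 677 and 442 CPM in KP (log2 fold change 2.30, SE 0.82, edgeR adjusted p = 0.357), 1.48 without 170025. Cd44, a hyaluronan receptor, was lower in every dFLEx tumor, at 186, 101 and 178 CPM against 568 and 279 CPM (log2 fold change -1.45, edgeR adjusted p = 0.425, and -0.68 without 3800). Vimentin was abundant in both models and overlapped, with 715 to 1867 CPM in dFLEx and 3668 and 768 CPM in KP.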

How the data were processed

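The authors trimmed paired-end reads of rRNA-depleted libraries with Trimmomatic 0.39, aligned them with STAR 2.7.10a to mm39 and deposited raw counts per gene from featureCounts (Subread 2.0.3). Of nonzero counts, 57.5% to 61.2% per library were even, as when both mates of a pair are counted. Gene names came from GENCODE M39 (98.7% of IDs matched).

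Counts were summed per tumor and tested with edgeR 4.0.16 (R 4.3.3; filterByExpr, TMM, quasi-likelihood test, Benjamini-Hochberg adjustment over 24743 genes, threshold 0.05), for 3 dFLEx against 2 KP tumors, without covariates. SE is the log2 fold change divided by the root of F. The test was checked on simulated counts, with changes made in genes whose mean was above 1 CPM. The spread between tumors was set to the trend over all genes fitted here. It called 0 of 50 genes changed 2-fold, 16 of 50 changed 8-fold and 47 of 50 changed 32-fold. At that spread most simulated differences of 8-fold or less therefore did not pass. With the spread set to a fixed dispersion of 0.05, it called 19 of 50 genes changed 2-fold and 50 of 50 changed 8-fold. The edgeR p-values rest on the spread between these tumors, with each gene's spread drawn toward a trend over all tested genes. The tumor numbers imply separate animals, which the labels do not state. Ratios used exact two-sided permutation tests, with the smaller tail doubled. The limit of a 0 covers counting error only. Alternatives used DESeq2 1.42.0, limma 3.58.1, other scalings, filters, treatments of duplicates and 1 tumor left out; removal of GC and length trends (loess, span 0.3) was added after seeing the data.

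The genes examined, the other lists and the tests were chosen with earlier results of these data known. Named from each further list were genes past the threshold, otherwise the 3 with the smallest p, and for Cdh1 and Cdh2 the 3 genes of nearest pattern (mean of at least 1 CPM, no provisional Gm or Rik name, log2(CPM + 1) centred on its mean). Some genes that the rule names are not reported here. Genes named outside this rule were chosen after their values were seen: Cdh11, St14, Pkp3, Snai3, Prrx2, Scx, Tcf3, Tcf4, Tcf12, Id2, Ctbp1, Ctbp2, Rgs5, Dcn, Vim, Myod1, Pax7 and Chrna1. The CIC octamers and the share of the type I cadherins were also chosen then.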

Additional observations from a re-analysis of the deposited data

How the results depend on the processing

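Snai1, Twist1, Zeb2, Prrx1, Cdh1, Cdh2 and Epcam kept their direction in all 16 alternatives. Leaving out 1 tumor gave 2.12 to 2.97 for Snai1, 2.08 to 3.23 for Twist1, -2.07 to -0.93 for Zeb2, -3.23 to -1.18 for Prrx1, -3.76 to -2.23 for Cdh1, -2.79 to -1.10 for Cdh2 and -1.73 to -0.62 for Epcam on the log2 scale. Direction turned for Snai2 (0.22 without 3800, range -0.51 to 0.22), Twist2 (0.60 without 3802, range -4.37 to 0.60), Zeb1 (1.27 without 3800 and 0.22 without 170019, range -1.23 to 1.27) and the junction gene Vcl (1.91 without 3800, range -6.57 to 1.91). The cause was not tested.

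Of the 10 genes, 0 passed with all tumors, and 6 passed with 9 libraries as independent samples (Snai1, Twist1, Zeb2, Prrx1, Cdh1 and Cdh2), which treats 2 libraries of 1 RNA as separate samples. The same 6 passed with a replicate block added. With limma and the tumor as a random effect 5 passed, with DESeq2 4 and without a filter on low counts 1, Cdh1. No gene passed under the other 11 alternatives. At an unadjusted edgeR p under 0.05 there were 5 of the 10 without 170019, against 1939 of 22794 over all genes. Without 170024 there were 4 (1414 of 22884) and without 170025 there were 6 (2283 of 23378), against 7 with all tumors (2617 of 24743). Over all genes, 45 of 24743 passed (25 higher, 20 lower), against 3344 of 19538 with independent libraries and 2476 of 19538 with the replicate block. With limma 543 of 19538 passed and with DESeq2 1396 of 22335. Without a filter 880 of 44382 passed, and 80 of 15364 with a mean of at least 1 CPM. Removal of GC and length trends gave 148 of 24540. Leaving out 1 tumor gave 0 to 414 genes: 0 without 170019 (edgeR, 1939 at an unadjusted p under 0.05), 0 without 170024 (1414), 9 without 170025, 8 without 3800 and 414 without 3802. Library totals gave 14 higher and 20 lower, and the upper quartile 17 higher and 33 lower. The median over all genes was -0.18 with TMM and -0.47 with plain totals, and the difference of a gene's log2 fold change between the scalings had a median of 0.30.

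By their labels, libraries numbered alike have only the number in common. In the 4 tumors with 2 libraries, the log2 difference between the duplicates correlated from -0.02 to 0.11 over 6 pairs of tumors, across 15264 genes. Whether such libraries were prepared or sequenced together was not tested. With 2 KP tumors, leaving out 1 leaves a lone sample assumed to vary like the dFLEx tumors. Cdh1, Epcam and Twist2 rest on as few as 36, 24 and 21 counts in a tumor.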

Other observations

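Of 12 catenin and adherens junction genes none passed the edgeR test, and 1 was higher in dFLEx at an unadjusted p under 0.05 and by DESeq2 and limma. Of the 12, 10 overlapped between the groups, against 18457 of 24743 tested genes. Nectin2, which forms cell contacts beside the cadherins, was at 326, 236 and 264 CPM in dFLEx and at 15.2 and 41.5 CPM in KP (log2 fold change 3.28, SE 0.70, edgeR adjusted p = 0.123). Vinculin (Vcl), which ties junctions to actin, reached 249 CPM in 3800 and 34.7 CPM in 170025 but 0.647, 1.98 and 3.78 CPM in 170019, 170024 and 3802 (log2 fold change -3.35, edgeR adjusted p = 0.637, and 1.91 without 3800). Ctnna2 was below 1 CPM in all 5 tumors.

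Of 12 inducers of the mesenchymal transition none passed the edgeR test. At an unadjusted p under 0.05, 2 were higher and 1 lower in dFLEx, and DESeq2 and limma each called 1 higher and 1 lower. Foxc2, a forkhead factor of mesoderm, was at 8.61, 8.81 and 32.3 CPM in dFLEx against 0.403 and 3.29 CPM in KP (log2 fold change 3.19, SE 1.14, edgeR adjusted p = 0.362), 5.37 without 3802 and 2.22 without 170025. The ligand gene Tgfb3 was at 125, 157 and 241 CPM against 68.8 and 26.2 CPM (1.88, SE 0.68, edgeR adjusted p = 0.368), 2.90 without 3800. Foxc2 and Tgfb3 were higher in every dFLEx tumor.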
